A study of Mus musculus with 18 samples.

Results

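The Cd300 receptors are a family of immunoglobulin-domain surface proteins of myeloid cells whose genes lie side by side on mouse chromosome 11. The members described here are the 6 genes Cd300a, Cd300lf, Cd300lb, Cd300ld, Cd300c2 and Cd300e, taken by symbol from the authors' deposited tables, where all 6 were listed both among the 21830 genes for spleen and among the 14423 genes for bone marrow. Their expression was measured by QuantSeq, which sequences a tag near the polyadenylated 3' end of each transcript, so that a count does not scale with transcript length. RNA came from suspended cells of C57BL/6 mice, and no wild-type group is part of the comparisons. Both genotypes interrupt the cytosolic DNA response. Cgas-/- cells lack the DNA sensor cGAS and so make no cGAMP, the messenger that activates STING. The cells called dKO are Trex1-/-;Sting1gt/gt, lacking the exonuclease TREX1 and carrying a Sting1 allele without function. Bone marrow of untransplanted mice gave 4 libraries of Cgas-/- and 4 of dKO cells. The spleen comparison set 5 libraries of dKO mice given Cgas-/- marrow against 5 of dKO mice given dKO marrow. These recipients were all lethally irradiated dKO animals studied 12 weeks after transplantation, and host cells of dKO genotype can remain in both groups. The ages of the mice are not given in the labels. The series title points to the question of whether cGAMP passes between cells in Trex1 deficiency.

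The deposited tables give, per gene, a mean normalized count over all libraries of a tissue and a DESeq2 log2 fold change with its standard error (SE), and the values of single libraries were not used here. Every fold change below is Cgas-/- over dKO, or Cgas-/- marrow over dKO marrow, with ± SE. Depth per library is therefore unknown. The genotype check was Cgas, at -0.92 ± 0.217 in spleen and -1.13 ± 0.155 in bone marrow, and Trex1, at 2.71 ± 0.199 in spleen and 1.45 ± 0.178 in bone marrow, per the authors' deposited tables, all 4 past a DESeq2 adjusted p of 0.05. As a description of the tissues, the summed mean counts of 10 mature neutrophil markers and 6 B cell markers were 24790 and 15260 in spleen, and 840518 and 5930 in bone marrow. The tables were normalized separately, and the labels were not tested with these sums.

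Cd300 receptors read lipids exposed on other cells, such as phosphatidylserine, phosphatidylethanolamine and ceramide, and adjust the response of the myeloid cell that carries them. Some are inhibitory and recruit phosphatases through tyrosine motifs in a long cytoplasmic tail. Others have a short tail and signal through the adaptors DAP12 (Tyrobp) or the Fc receptor gamma chain (Fcer1g). In bone marrow and spleen they are known from monocytes, neutrophils, macrophages, mast cells and dendritic cells.

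On GRCm38 the 6 genes spanned 244 kb of chromosome 11, from 114890041 to 115133992. Cd300a lay on the plus strand at the start of this stretch (114890041 to 114904654). The others lay on the minus strand, with Cd300lb at 114922781 to 114934386, Cd300ld at 114982274 to 114989922, Cd300c2 at 114996721 to 115001880, Cd300e at 115051917 to 115062177 and Cd300lf at 115116214 to 115133992. The annotation placed 11 Cd300 genes in the stretch and Cd300lg elsewhere on the chromosome, 12 in all. Of these, 8 were listed in each deposited table, and Cd300ld2, Cd300ld3, Cd300ld4 and Cd300ld5 were listed in neither.

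Since one member passed the test and the others did not, the promoter of that gene, Cd300e, is shown beside those of Cd300lf, which had the largest mean count, and Cd300lb, which had the next smallest p-value in bone marrow. The windows are from RefSeq (GRCm38.p6), run 5′ to 3′ on the minus strand and hold 250 bases before and 50 bases from the RefSeq start of the gene. They cover chr11:115061990-115062289 for Cd300e, chr11:115133943-115134242 for Cd300lf and chr11:114934322-114934621 for Cd300lb. The GENCODE start of Cd300e, at 115062177, lies inside its window, upstream of the RefSeq start. Capitals mark matches to 4 motifs searched on both strands. These were the core bound by the myeloid factor PU.1 (GAGGAA), a loose C/EBP-type site (TTNNGNAA), the TATA box and the interferon-stimulated response element, taken as a pair of GAAA repeats with any 2 bases between them.
Cd300e: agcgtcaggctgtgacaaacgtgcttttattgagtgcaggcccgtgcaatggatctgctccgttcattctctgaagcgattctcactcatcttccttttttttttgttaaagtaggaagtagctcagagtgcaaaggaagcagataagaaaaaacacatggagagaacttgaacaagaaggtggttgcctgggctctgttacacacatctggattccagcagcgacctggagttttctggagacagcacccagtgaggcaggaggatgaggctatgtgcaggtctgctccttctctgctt
Cd300lf: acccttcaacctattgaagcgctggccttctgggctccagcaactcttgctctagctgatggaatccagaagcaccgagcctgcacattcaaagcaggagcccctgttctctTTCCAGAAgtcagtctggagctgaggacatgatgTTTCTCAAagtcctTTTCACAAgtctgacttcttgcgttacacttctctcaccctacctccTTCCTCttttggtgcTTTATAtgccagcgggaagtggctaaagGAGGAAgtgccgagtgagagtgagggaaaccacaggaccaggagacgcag
Cd300lb: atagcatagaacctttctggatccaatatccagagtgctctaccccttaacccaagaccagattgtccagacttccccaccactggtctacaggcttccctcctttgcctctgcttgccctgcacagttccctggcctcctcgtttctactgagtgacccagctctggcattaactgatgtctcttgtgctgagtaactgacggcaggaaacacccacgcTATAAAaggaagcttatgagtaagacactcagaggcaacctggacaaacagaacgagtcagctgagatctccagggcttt

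The Cd300e window held 0 matches, the Cd300lf window 6 and the Cd300lb window 1, a TATA box (TATAAA) that begins 30 bases before the start. Among the Cd300lf matches were a PU.1 core 43 bases before the start, another at the start itself, and a TATA box on the opposite strand 28 bases before it. A PU.1 core was found in 4 of the 6 members' windows (Cd300a, Cd300lf, Cd300ld and Cd300c2), against 28.3% of all 32851 promoter windows. The interferon-stimulated response element was found in Cd300c2 only among the 6 members, 11 bases after the start, and in 3.44% of all windows. A C/EBP-type site stood in the windows of Cd300a, Cd300lf and Cd300ld, and in 40.7% of all windows. A TATA box stood in those of Cd300lf and Cd300lb, and in 13.6% of all windows. No 2 matches overlapped in the members' windows. Absence of a match says only that these letters are not in this window.

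In bone marrow, Cd300e was lower in Cgas-/- cells and was the 1 member of the 6 that passed the test. CD300E in humans is an activating receptor that marks non-classical monocytes. Its mean normalized count was 26.5, the lowest of the family, which with the deposited fold change corresponds to 12.6 in Cgas-/- marrow and 40.3 in dKO marrow. Group means of this kind were worked out from the deposited mean and fold change for groups of equal size, and they carry no SD. In the authors' deposited table Cd300e fell by 1.68 ± 0.460 on the log2 scale, which is 3.21-fold lower, and it passed with a DESeq2 adjusted p of 0.0479. The 95% interval ran from -2.58 to -0.78, or from 0.167 to 0.582 of the dKO level. Ordered from the lowest log2 fold change, it stood at position 31 of all 14423 genes. Among the 12045 genes with a mean of at least 20 it stood at position 9. Its own mean reached 20 through the dKO group, and such positions take no account of the SE. By p-value Cd300e stood at position 76 of the 77 genes past the test in that table, 0.534% of those tested, and the smallest log2 change that would have passed at its SE was likewise 1.68 in size to 2 decimals. With a t distribution or a Benjamini-Yekutieli adjustment in place of the authors' choices, 0 members passed. In bulk RNA, fewer cells of a type and less RNA per cell cannot be told apart.

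**Figure D1:**
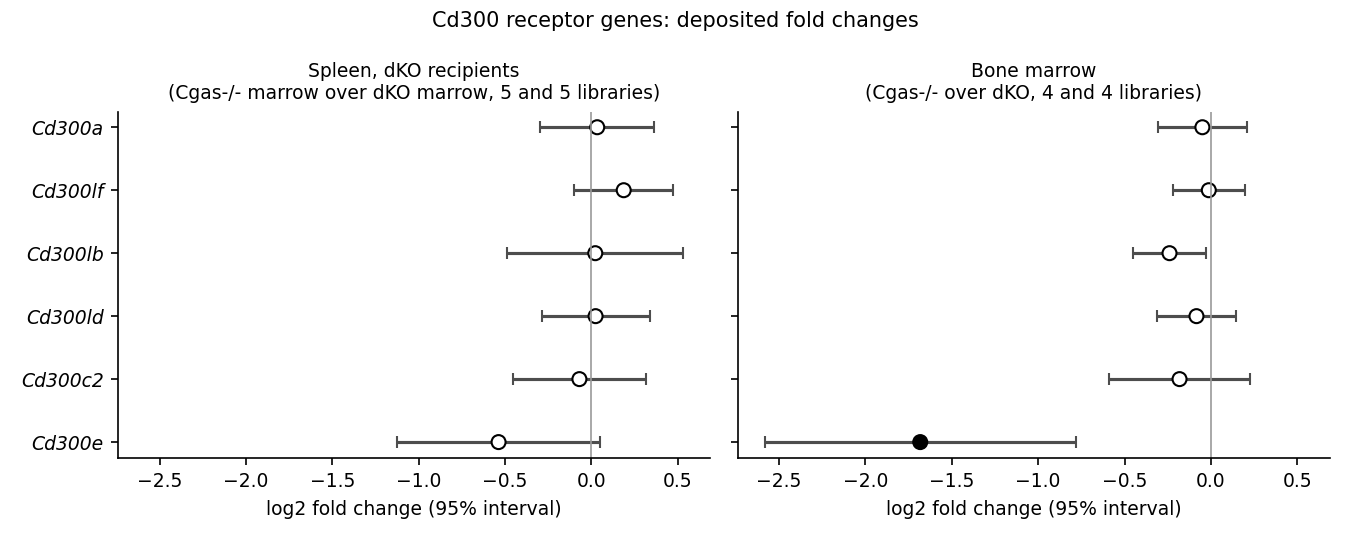
Deposited log2 fold change of each Cd300 gene (points, filled where the DESeq2 adjusted p is under 0.05) with its 95% interval (bars), in spleen at left and bone marrow at right. Cd300e in bone marrow, at -1.68, is the 1 filled point, and its interval lies wholly below 0.

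Neither inhibitory receptor passed the test in bone marrow. Cd300a, which binds phosphatidylserine and phosphatidylethanolamine and restrains mast cells and phagocytes, had 334 normalized counts in Cgas-/- marrow and 345 in dKO marrow. Its log2 fold change was -0.05 ± 0.131 per the authors' deposited table (DESeq2 adjusted p = 0.980). Cd300lf, a ceramide receptor through which murine norovirus enters cells, had 1404 normalized counts in Cgas-/- marrow and 1416 in dKO marrow. It was the most abundant member, with 47.7% of the family's summed mean counts, and its log2 fold change of -0.01 ± 0.107 was the smallest in size of the 6 (DESeq2 adjusted p = 0.998, authors' deposited table). The 95% interval of Cd300a ran from 0.809 to 1.16 of the dKO level, and that of Cd300lf from 0.858 to 1.15.

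Among the activating receptors other than Cd300e, none passed the test in bone marrow. Cd300lb, which signals through DAP12, had 440 normalized counts in Cgas-/- marrow and 520 in dKO marrow. Its log2 fold change was -0.24 ± 0.109, with an unadjusted p of 0.0277 and a DESeq2 adjusted p of 0.463 per the authors' deposited table, and its interval ended at -0.03. Cd300ld, which pairs with the Fc receptor gamma chain, had 529 normalized counts in Cgas-/- marrow and 560 in dKO marrow, a log2 fold change of -0.08 ± 0.117 (DESeq2 adjusted p = 0.937, authors' deposited table). Cd300c2, which can use either adaptor, had 143 normalized counts in Cgas-/- marrow and 163 in dKO marrow. At -0.18 ± 0.209 its interval, -0.59 to 0.23, was the widest of these 5 genes (DESeq2 adjusted p = 0.913, authors' deposited table).

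As a family, 6 of 6 members had a log2 fold change below 0 in bone marrow, where 50.5% of all genes did. The median was -0.13, beside -0.00 over all genes of the table. Unadjusted p-values were below 0.05 for 2 members, Cd300e and Cd300lb, and for 8.85% of all genes. Summed over the 6 members, the group means came to 2863 normalized counts in Cgas-/- marrow and 3044 in dKO marrow. The interval of Cd300e ended at -0.78, below the lowest bound among the other 5 members, -0.59 for Cd300c2. Members were measured in the same libraries, and the difference between members was not tested.

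**Figure D2:**
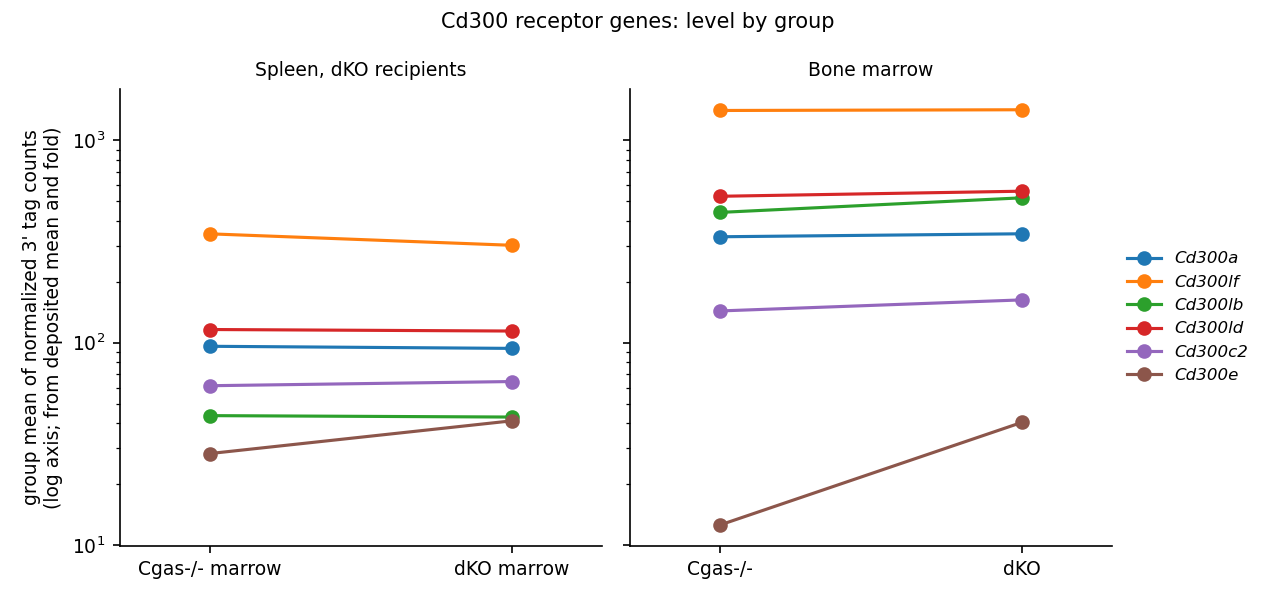
Group mean of normalized 3' tag counts (log axis) of each Cd300 gene, worked out from the deposited mean and fold change, with Cgas-/- left of dKO in each panel. Lines join the groups of 1 tissue, and the steepest line is that of Cd300e in bone marrow (12.6 in Cgas-/- and 40.3 in dKO marrow); the tables were normalized separately, so heights are not compared across panels.

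In spleen, no member passed the test, beside 0.133% of all genes, and 0 of 6 had an unadjusted p under 0.05 (3.02% of all genes). Cd300e again had the lowest log2 fold change of the family. Its group means were 28.3 normalized counts in recipients of Cgas-/- marrow and 41.1 in recipients of dKO marrow. The deposited estimate was -0.54 ± 0.299, or 1.45-fold lower, with an unadjusted p of 0.0726 and a DESeq2 adjusted p that rounds to 1, per the authors' deposited table. Its interval, -1.12 to 0.05, included no change, and at this SE a log2 change of at least 1.22 in size would have been needed to pass.

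The inhibitory Cd300lf had 345 normalized counts in spleens with Cgas-/- marrow and 303 in spleens with dKO marrow, the highest log2 fold change of the family at 0.19 ± 0.146 (unadjusted p = 0.199 under DESeq2 per the authors' deposited table). Cd300a had 95.9 normalized counts with Cgas-/- marrow and 93.7 with dKO marrow (0.03 ± 0.169, authors' deposited table). The 95% intervals of both included 0. The activating Cd300ld had 116 normalized counts with Cgas-/- marrow and 114 with dKO marrow (0.02 ± 0.160, authors' deposited table). Cd300lb had 43.6 normalized counts with Cgas-/- marrow and 42.9 with dKO marrow (0.02 ± 0.260, authors' deposited table). Cd300c2 had 61.3 normalized counts with Cgas-/- marrow and 64.2 with dKO marrow (-0.07 ± 0.197, authors' deposited table). All 5 genes other than Cd300e had intervals between -0.49 and 0.53. In spleen 2 members were below 0, as were 55% of all genes, and 4 above, with a median of 0.02 beside -0.03 over all genes. Summed over the family, the group means were 690 normalized counts with Cgas-/- marrow and 659 with dKO marrow.

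Whether the members differed between the tissues was tested as the log2 fold change in spleen less that in bone marrow, divided by the combined SE. The 2 comparisons share no library. The difference was 1.15 ± 0.548 for Cd300e, with log2 fold changes of -0.54 in spleen and -1.68 in bone marrow and a 95% interval of 0.07 to 2.22. The unadjusted normal p was 0.0366 and the Benjamini-Hochberg adjusted p over the 13776 genes listed in both tables was 0.990 (normal test of the DESeq2 estimates), so the tissues were not shown to differ for this gene. For the other members the difference ranged from 0.08 ± 0.214 (Cd300a) to 0.26 ± 0.282 (Cd300lb), each with an interval that included 0. None of the 6 passed, beside 0.0581% of all genes in this test.

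**Figure D3:**
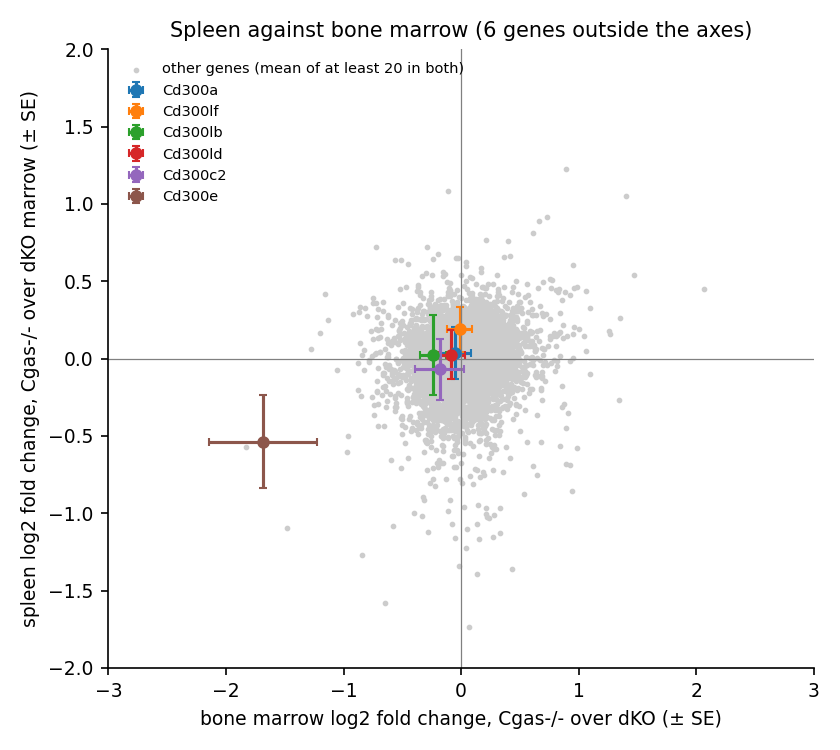
Log2 fold change in spleen (vertical) against bone marrow (horizontal) for the Cd300 genes (coloured, bars ± SE) and for other genes with a mean count of at least 20 in both tissues (grey; 6 genes lie outside the axes). Cd300e lies apart at lower left, at -0.54 in spleen and -1.68 in bone marrow, while the other 5 members lie within the cloud.

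The 3 genes whose pair of log2 fold changes was nearest to that of Cd300e, among 9999 genes with a mean of at least 20 in both tissues, were Ly6k, Wdfy1 and Hemk1. Likeness was the straight-line distance over only 2 values, and it was 0.147, 0.596 and 0.718 on the log2 scale in that order. Ly6k, a lipid-anchored protein of the Ly6 family, had -0.57 ± 0.243 in spleen and -1.83 ± 0.567 in bone marrow per the authors' deposited tables and passed in neither. Wdfy1, an endosomal protein, passed the test in both tissues, at -1.10 ± 0.120 in spleen and -1.48 ± 0.145 in bone marrow per the authors' deposited tables. Hemk1, a methyltransferase gene, had -0.50 ± 0.170 in spleen and -0.97 ± 0.326 in bone marrow per the authors' deposited tables, without passing in either.

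The other Cd300 genes listed were Cd300c, an activating receptor, and Cd300lg, an endothelial adhesion molecule also called nepmucin. In spleen Cd300c was at -0.51 ± 0.626 and Cd300lg at 0.35 ± 0.393, with mean counts of only 6.20 and 11.2 in the authors' deposited table. In bone marrow they were at -0.02 ± 0.271 and -0.38 ± 0.233 per the authors' deposited table, and neither passed in either tissue.

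Most partners through which the receptors signal had log2 fold changes below 0 in the same bone marrow libraries. Of 15 adaptor and signalling genes, 12 had a log2 fold change below 0 in bone marrow, where 50.5% of all genes did. The median of the 15 was -0.17, beside -0.00 over all genes. Fcer1g, the Fc receptor gamma chain used by Cd300ld and Cd300c2, fell by 0.31 ± 0.0759 and was the 1 gene of the list past the test (DESeq2 adjusted p = 0.0137, authors' deposited table; 0.361% of all genes were lower past the test). Tyrobp, encoding DAP12 and named after its values were seen, had -0.23 ± 0.0773 (DESeq2 adjusted p = 0.208) per the authors' deposited table. Grb2, an adaptor that lies within 1 Mb of the cluster, had -0.18 ± 0.0610 (DESeq2 adjusted p = 0.184, authors' deposited table). In all, 6 of the 15 were lower with an unadjusted p below 0.05, which 4.65% of all genes were. In spleen the 15 genes had a median of 0.01, and none passed, beside 0.133% of all genes. Csk, a kinase gene, was at 0.08 ± 0.0734 there per the authors' deposited table.

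Other paired receptors of myeloid cells, of the Pilr, Trem, Sirp, Lilr, Clec and Siglec families, had 25 of 30 genes below 0 in bone marrow, with a median of -0.16. None passed under DESeq2, per the authors' deposited table, beside 0.534% of all genes. With an unadjusted p below 0.05, 7 were lower and 2 higher, beside 4.65% of all genes lower and 4.19% higher. Of all genes 50.5% were below 0. The smallest p-values were those of the inhibitory receptor gene Pilra (-0.31 ± 0.101) and of Sirpb1b (-0.41 ± 0.135, authors' deposited table), the second of which belongs to a group of close paralogs whose reads can be split. In spleen 15 of 30 were below 0, where 55% of all genes were, with a median of -0.00. None of the 30 passed there, beside 0.133% of all genes. The smallest p-values there were those of Clec7a, the beta-glucan receptor (0.31 ± 0.147), and Lilr4b (0.39 ± 0.256, authors' deposited table). Other phosphatidylserine receptors and bridging proteins share a ligand with several Cd300 receptors. Their genes had medians of -0.09 over 14 genes in spleen and -0.04 over 11 genes in bone marrow. None of them passed, beside 0.133% of all genes in spleen and 0.534% in bone marrow. Havcr2 (-0.39 ± 0.211) and Itgav (0.20 ± 0.133) had the smallest p-values of that list in spleen, and Stab1 (0.35 ± 0.299) and Pros1 (-0.22 ± 0.247) in bone marrow, per the authors' deposited tables.

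Markers of monocytes, the cells in which CD300E is best known, were below 0 for the most part in the same bone marrow comparison, and their part in the Cd300 values was not tested. All 10 classical monocyte markers were below 0, beside 50.5% of all genes, with a median of -0.34 and summed group means of 36766 normalized counts in Cgas-/- marrow and 44044 in dKO marrow. Ly6c2 (-0.33 ± 0.0794), Ms4a4c (-0.60 ± 0.150) and the growth factor receptor gene Csf1r (-0.37 ± 0.0988) passed under DESeq2, per the authors' deposited table, beside 0.361% of all genes that were lower past the test. Non-classical monocyte markers had 9 of 12 below 0, a median of -0.28 and sums of 5644 in Cgas-/- marrow and 6252 in dKO marrow. Spn, Pou2f2 and Itgal, with mean counts of 1526, 1308 and 1307, supplied most of these sums. None of the 12 passed, and 4 of them were lower with an unadjusted p below 0.05, as were 4.65% of all genes. The smallest p-values were those of the integrin gene Itgal (-0.27 ± 0.0794) and of Adgre4 (-0.67 ± 0.246, authors' deposited table), whose log2 fold change was the lowest of that list and less than that of Cd300e in size. All markers of both monocyte lists were listed with a mean of at least 20 in bone marrow. Mature neutrophil markers had 9 of 10 below 0 (median -0.17), with Ly6g at -0.29 ± 0.105 and Csf3r at -0.26 ± 0.113 and no call per the authors' deposited table. Macrophage markers had 4 of 9 below 0 (median 0.09), the lowest p being that of Adgre1 (-0.46 ± 0.171), followed by C1qb (-0.22 ± 0.211) per the authors' deposited table. Interferon-stimulated genes had 11 of 12 below 0 (median -0.71), against the 50.5% below 0 and 0.361% lower past the test over all genes, with Oas2 (-1.20 ± 0.253), Rtp4 (-0.92 ± 0.195) and Oasl1 (-1.27 ± 0.276) past the threshold under DESeq2, per the authors' deposited table.

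Other marker lists went different ways in bone marrow, where 50.5% of all genes were below 0 and 49.5% above, with 0.361% lower and 0.173% higher past the test. Dendritic cell markers had 8 of 9 above 0 (median 0.10), and Flt3 (0.72 ± 0.153) passed under DESeq2, per the authors' deposited table. Erythroid markers had 9 of 9 above 0 (median 0.64), and Hbb-bt (0.84 ± 0.223), which has near-identical paralogs, passed under DESeq2, per the authors' deposited table. Mast cell, basophil and eosinophil markers, of cells that carry Cd300a and Cd300lf, had 7 of 10 below 0 (median -0.18), and Ear1 (-1.05 ± 0.240), likewise one of a group of close paralogs, passed under DESeq2, per the authors' deposited table. B cell markers had a median of 0.05 and T cell markers one of -0.06, with no call.

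In spleen no marker of any of these lists passed, beside 0.133% of all genes. Classical monocyte markers had 3 of 10 below 0 (median 0.06), where 55% of all genes were below 0. Their summed group means were 5815 normalized counts with Cgas-/- marrow and 5765 with dKO marrow. Non-classical monocyte markers had 7 of 12 below 0 (median -0.06), with sums of 7186 with Cgas-/- marrow and 7190 with dKO marrow. Most of these sums came from Pou2f2, Itgal and Spn, with mean counts of 3068, 1647 and 1148. Such sums say little about the less abundant markers of the list. Fabp4, a fatty acid binding protein gene, had the lowest p of that list, at -0.68 ± 0.241, and Nr4a1, a transcription factor required by non-classical monocytes, was at 0.26 ± 0.128 per the authors' deposited table. Mature neutrophil markers had a median of -0.15, macrophage markers one of -0.20 and dendritic cell markers one of -0.12. Markers of mast cells, basophils and eosinophils had a median of -0.34, but only 3 of these 10 had a mean count of at least 20. Erythroid markers had a median of -0.68 and interferon-stimulated genes one of 0.15, while B cell and T cell markers had medians of 0.03 and 0.10.

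**Figure D4:**
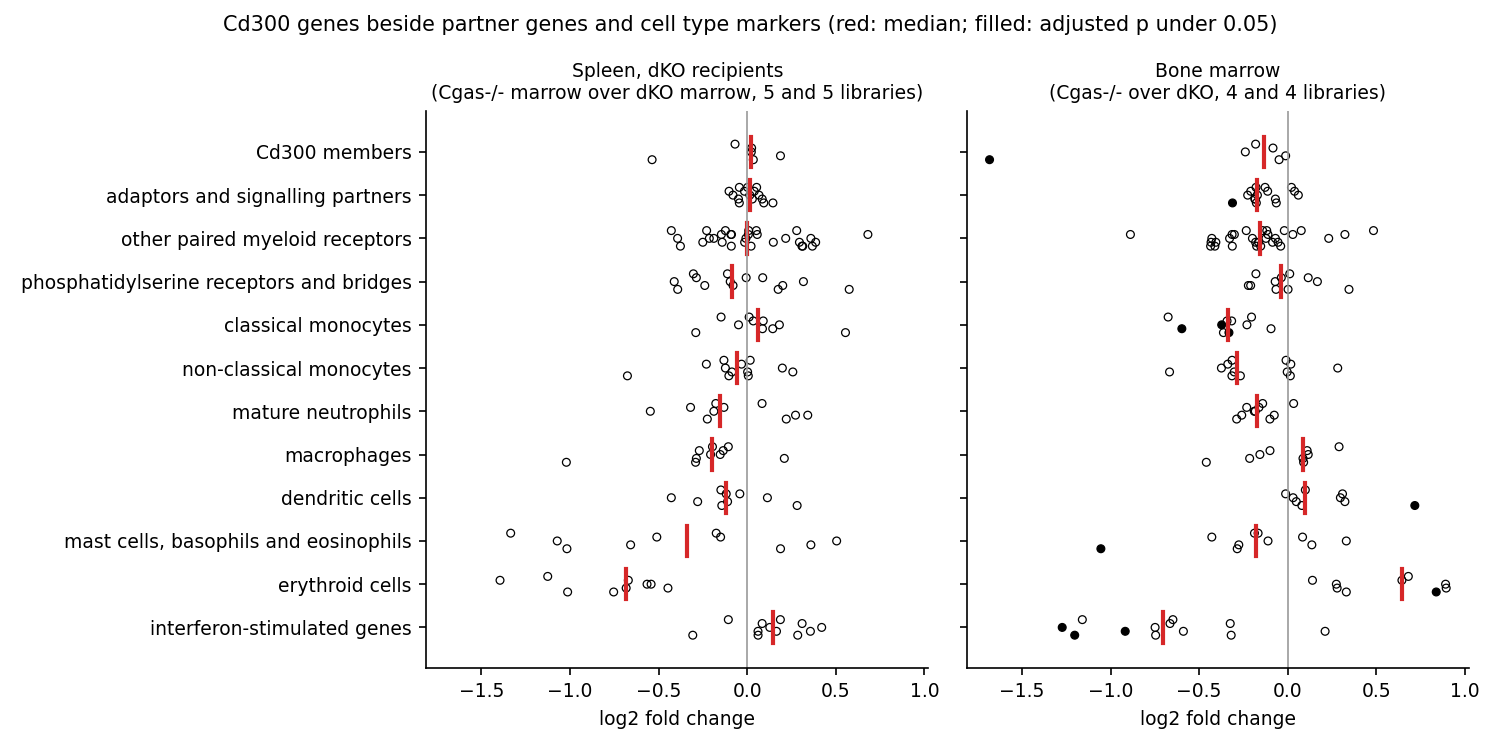
Log2 fold changes (points, filled where the DESeq2 adjusted p is under 0.05) of the Cd300 genes and of lists of partner genes and cell type markers, with the median of each list as a red bar, in spleen at left and bone marrow at right. In bone marrow Cd300e at -1.68 lies below every other gene shown, and the median of the classical monocyte markers is -0.34.

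No other gene near the cluster passed. Of 39 other genes within 1 Mb that were listed for bone marrow, 0 passed under DESeq2, per the authors' deposited table, beside 0.534% of all genes. Only 1, Grb2, had an unadjusted p under 0.05, beside 8.85% of all genes. Their log2 fold changes ran from -0.39 to 0.37 with a median of -0.06. Of 50 listed for spleen, 0 passed and 0 had an unadjusted p under 0.05, beside 0.133% and 3.02% of all genes. The median was -0.01. With shares this low over all genes, few or no calls say little about this stretch. H3f3b (0.20 ± 0.107) and Caskin2 (-0.95 ± 0.544, with a mean count of 7.62) had the smallest p-values there, and Wbp2 (-0.24 ± 0.138) came after Grb2 in bone marrow, per the authors' deposited tables.

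**Figure D5:**
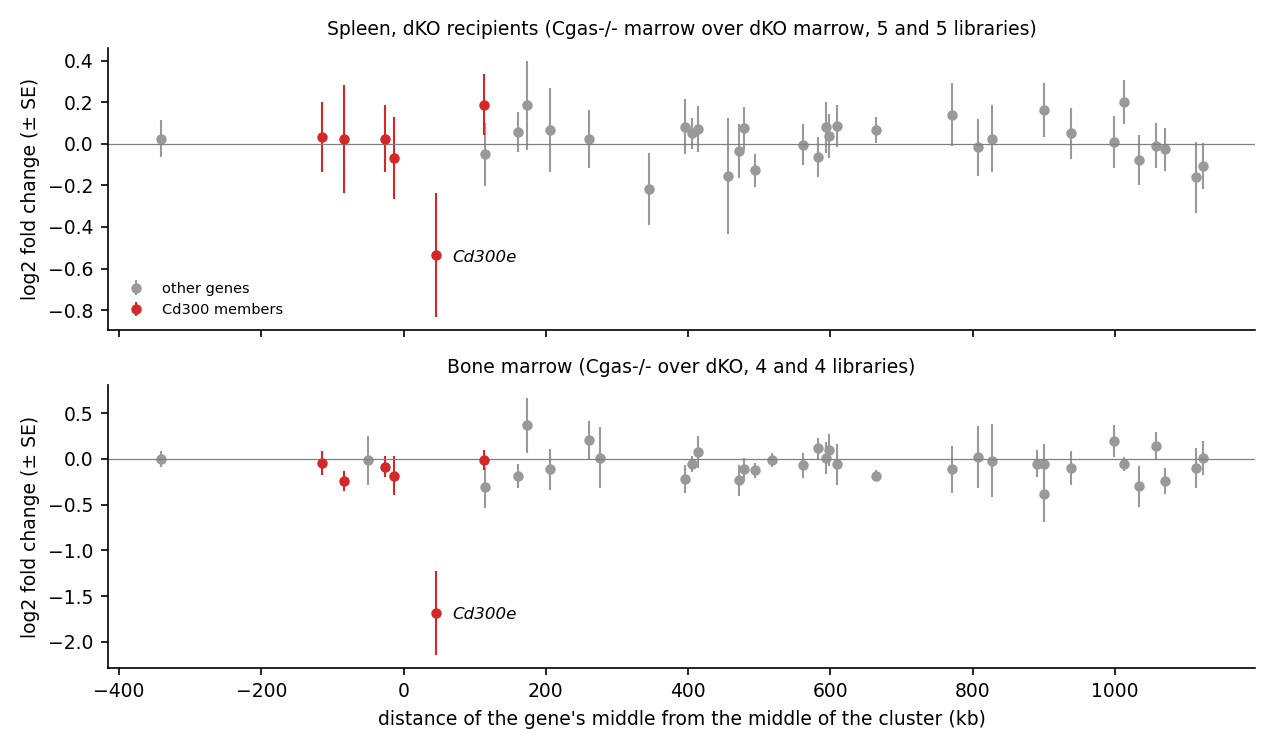
Log2 fold change (± SE) of genes with a mean count of at least 20 by distance of their middle from the middle of the Cd300 cluster, in spleen above and bone marrow below, Cd300 members in red. Cd300e, at -0.54 in spleen and -1.68 in bone marrow, is the lowest point of both panels.

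How far reads of one member could be counted for another was examined in the last 500 bases of the members' annotated protein-coding transcripts. None of the 451 stretches of 50 bases in the Cd300e, Cd300a, Cd300lb or Cd300ld ends occurred in a transcript of another gene. In Cd300c2, 16 of 451 also occurred in Cd300a, and in Cd300lf 17 of 451 occurred in transcripts of many genes. On the opposite strand, Rab37 overlaps Cd300lf and a clone-named gene overlaps Cd300lb. The counting strand is not given in the sources used here, so reads of these overlapping pairs may not be separated. Rab37 itself had -0.05 ± 0.151 in spleen and -0.31 ± 0.219 in bone marrow per the authors' deposited tables.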

How the data were processed

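Libraries were QuantSeq forward libraries of RNA from suspended cells, per the labels' protocols. Build mm10, STAR 2.6.1, bcl2fastq 1.8.4, Partek and DESeq2 are named in the submitters' processing notes. The sources used here do not give the counting tool, annotation, gene filter or DESeq2 version. Each tissue has 1 table of the authors' DESeq2 results, per the file headers. In it, the mean normalized count is a signal that the authors averaged over libraries after division by size factors. The log2 fold change and its SE, the Wald score, the p-value and its Benjamini-Hochberg adjustment were used as deposited, and recomputing the score and both p-values from the table returned the deposited values. The lowest mean count listed was 0.239 for spleen and 6.46 for bone marrow.

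Calls used an adjusted p of 0.05 over the whole table. Intervals of 95% are 1.96 SE wide on each side. The members, lists and rules were chosen with earlier results of these data known. Genes named beside the members were taken from those past the test in either tissue or, failing that, the 2 smallest p-values of a list per tissue. Pou2f2 and Spn were named as well, for their large counts. Lists are described by counts and medians, with no set test. The labels do not say that libraries are from separate mice, so p-values measure only the spread of these samples, possibly technical. Symbols were matched as printed or by a RefSeq synonym, coordinates are from GENCODE M21 (GRCm38) and promoters from RefSeq. The test of the difference between tissues was run on simulated data. Their noise was drawn as normal with the deposited SE, the same SE by which the test divides. The simulation therefore could not show whether SEs from so few libraries are too small. Python 3.11.15, pandas 2.3.3, numpy 2.4.6, scipy 1.17.1 and matplotlib 3.10.9 were used. The values of 1 gene of the adaptor and signalling list are not reported here.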

Additional observations from a re-analysis of the deposited data

How the results depend on the processing

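The number of Cd300 genes past the test in bone marrow, 1 as deposited, was 0 with a t distribution of 6 degrees of freedom in place of the normal and 0 with the Benjamini-Yekutieli adjustment. Cd300e then had adjusted p-values of 0.986 and 0.487 (recomputed from the DESeq2 Wald statistics), and the genes called in the whole bone marrow table numbered 1 and 29, against 77 as deposited. The t distribution left 11 of the 29 genes called in spleen and 2 of the 8 called for the difference between tissues. Adjusting over genes with a mean of at least 20, centring on the median fold change and a threshold of 0.1 left the count in bone marrow at 1. In spleen, and for the difference between tissues, it stayed at 0 under each alternative run. Of 66 recomputed values for single members, 64 kept their direction and their side of the threshold, and the other 2 were those of Cd300e just given. Much of this was fixed in advance. Only centring on the median could change a direction. The t distribution and the Benjamini-Yekutieli adjustment can only raise a p-value, so members that had not passed could not pass under them. No paired analysis was possible because the tables hold no values per library, and for the same reason no replicate could be left out. The call on Cd300e rests on a mean of 26.5 normalized counts, and in spleen the SE of 0.299 would have let only a log2 change of at least 1.22 in size pass.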
